A study of Mus musculus with 2 samples.

Results

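The 10 genes described here encode the cohesin complex, the proteins that load and release it, and its chromatin partner CTCF. They are Smc1a, Smc3, Rad21, Stag1, Stag2, Nipbl, Wapl, Pds5a, Pds5b and Ctcf, chosen by symbol, and all 10 were found among the 15127 protein-coding genes of the count table. The cells, named pSM44, are female embryonic stem cells of an F1 mouse cross of 129 with castaneus, and doxycycline turns on Xist at its endogenous place on the 129 X chromosome. The labels place both poly(A) RNA libraries in 1 group, cells in serum-free 2i/LIF medium given doxycycline at 2 μg/mL for 24 h. The table held 1 column of raw counts, 10017978 in all, and it named no library, so each gene had 1 value, no replicate error could be computed, and no untreated cells were analysed here.

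Cohesin is a ring that holds DNA. SMC1A and SMC3, long coiled-coil ATPases, pair at a hinge, RAD21 closes the ring between their heads, and STAG1 or STAG2 binds RAD21. NIPBL with MAU2 loads the ring and drives its ATPase, so that DNA is extruded into loops, while WAPL with PDS5A or PDS5B opens it again. CTCF, a zinc finger protein, stops extruding cohesin at its bound sites, and the same ring holds sister chromatids together from replication to anaphase.

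The cells carried the markers of their label. CPM here is a gene's count scaled by the file total. The 10 naive pluripotency markers had a median CPM of 527, and each was above CPM 1, beside 55.1% of all annotated genes at CPM 1 or more. Lists for other cell types were lower: the summed CPM was 17.4 over 4 formative or primed genes, 39.03 over 6 fibroblast genes, 23.2 over 4 primitive endoderm genes, 20.3 over 4 trophoblast genes, 24.6 over 3 mesoderm genes and 1.30 over 3 genes of the 2-cell-like state. The neuroectoderm list summed to 72.3, of which Nes gave 66.1, and 4 Y-linked genes were not listed. Since the smallest count in the table was 1, a gene missing from it is called not listed. Being listed went with gene position. Of 1467 annotated genes whose exonic bases all lay under the span of other genes, 8.45% were listed. Of the 14067 genes with no such base, 67.4% were. Whether these groups of genes also differ in expression was not tested. Of the cohesin genes, Ctcf had 12.4% of its exonic bases under other genes, Stag2 5.72% and Pds5a 1.93%, and the other 7 had none.

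Transcripts of all 10 genes were above the middle of the table. Each passed CPM 1, as did 80.1% of all listed genes, and 8 of 10 passed CPM 100, against 15.5% of listed genes. The exceptions were Stag2 at CPM 67.1 and Pds5b at CPM 76.9. The median of the 10 was CPM 169, against 18.3 for all listed genes, a difference of 3.14 on the log2(CPM + 1) scale. Long transcripts collect more counts, so the genes were also ranked per kilobase of annotated exon. Their median percentile was 91.6 by CPM and 81.2 per kilobase, and the per-kilobase percentiles ran from 63.1 for Pds5a to 97.0 for Rad21. Together the 10 genes held 19313 counts, or 0.193% of the total.

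**Figure D1:**
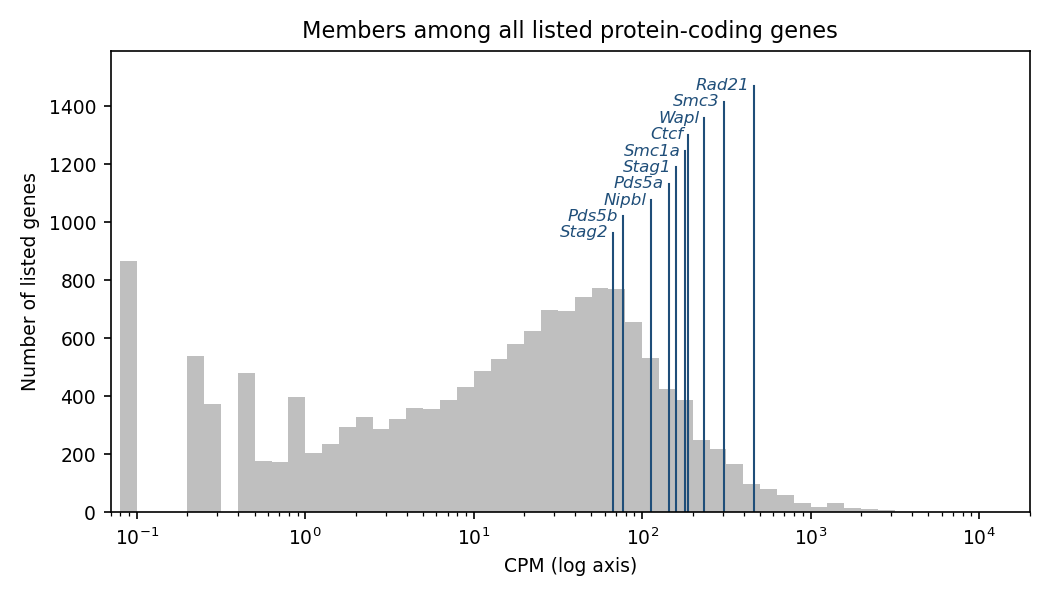
Histogram of CPM (log axis) for the 15127 listed protein-coding genes, with the number of genes on the vertical axis and a line at each of the 10 cohesin, regulator and Ctcf genes. The lines run from CPM 67.1 (Stag2) to 461 (Rad21), to the right of the median of all genes at 18.3; line heights only separate the labels.

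The ring subunits were unequal, with Rad21 highest and Smc1a lowest of the core 3. Rad21, whose product closes the ring and is cut at anaphase, lies on chromosome 15 from 51962240 to 51991747 (GRCm38, minus strand). It had 4614 counts (95% Poisson interval 4482 to 4749), or 1090 counts per kilobase of exon. Smc3, on chromosome 19 from 53600398 to 53645833, had 3084 counts (2976 to 3195), or 557 per kilobase. Smc1a, on chromosome X from 152016428 to 152062694, had 1809 counts (1727 to 1894), or 314 per kilobase. Per kilobase, the Smc1a level was therefore 0.563 of that of its dimer partner Smc3 (95% interval of the count ratio 0.531 to 0.597). Rad21 stood at 1.96 times Smc3 (1.87 to 2.05). Intervals describe counting error alone, as if each read were a separate molecule. The reads carried no molecular identifiers and need not be separate molecules, and no replicate error was available, so the true spread may be wider. A pair was called different only where the interval excluded 1 under all 5 definitions of gene length. Both of these differences met that rule: the ratio ran from 0.563 to 0.607 for Smc1a to Smc3, and from 1.83 to 2.87 for Rad21 to Smc3. The definitions were annotated exons, coding sequence, longest coding transcript, gene span, and exons outside other genes. For Smc1a, Smc3 and Rad21 the last equals the first, so it added no separate check.

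Smc1a and Stag2 are the X-linked genes among the 10. The values pool both alleles and cannot separate the 129 chromosome, which carries the inducible Xist, from the castaneus one. Among the 582 listed X-linked genes matched to the annotation, Smc1a was at percentile 86.4 per kilobase and Stag2 at 64.6. Among all listed genes the same percentiles were 87.8 and 64.7. The standing of both genes was thus nearly the same against the X chromosome as against the whole table. Whether either would be higher without doxycycline was not tested.

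**Figure D2:**
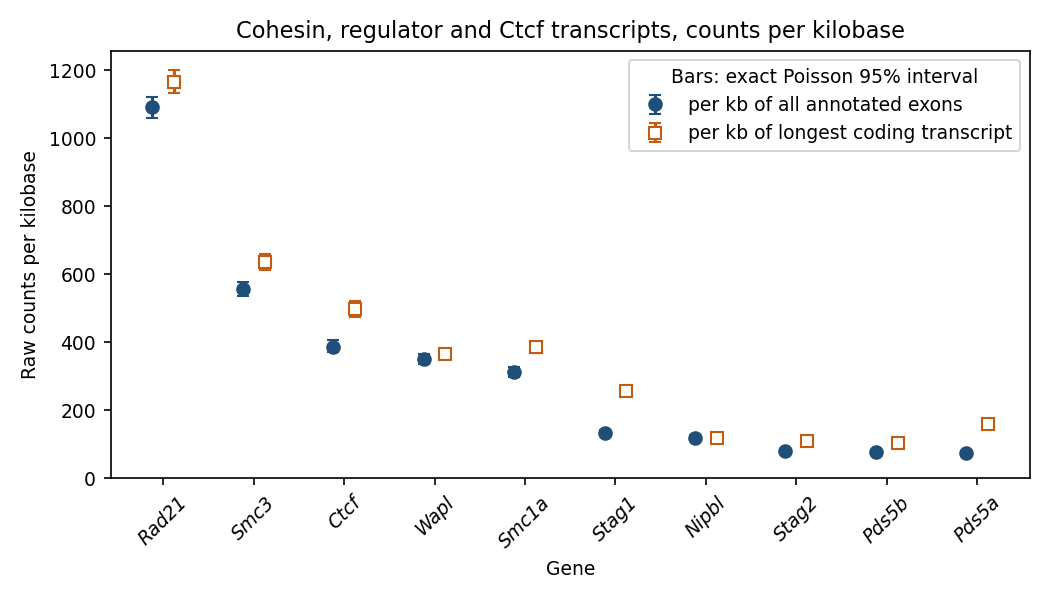
Raw counts per kilobase (vertical axis from 0) for each of the 10 genes, per kilobase of all annotated exons (filled circles) and of the longest coding transcript (open squares), with exact Poisson 95% intervals. Rad21 and Smc3 lead on both scales, at 1090 and 557 on the first, while Stag2 and Pds5b lie at the low end on both.

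The order from Rad21 down was Smc3, Ctcf, Wapl, Smc1a, Stag1, Nipbl, Stag2, Pds5b and Pds5a per kilobase of exon. Neighbours in that order differed beyond counting error as far as Stag2. Stag2 and Pds5b (81.2 and 78.3 per kilobase) did not, with a ratio of 1.04 (0.935 to 1.15), nor did Pds5b and Pds5a (78.3 and 74.4), with a ratio of 1.05 (0.963 to 1.15). Per kilobase of the longest coding transcript, Smc1a passed Wapl at 386 against 367 and Pds5a passed Nipbl at 161 against 120. On that scale the neighbours Smc1a and Wapl, Nipbl and Stag2, and Stag2 and Pds5b were not separated.

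STAG1 and STAG2 are alternative subunits of the same ring, and STAG1 and STAG2 cohesin are known to differ in how long they stay on chromatin. The coding sequences were 70.4% identical over 3741 aligned bases, and the longest run of identical bases was 23. That run lay at coding bases 1147 to 1169 of Stag1 and 1138 to 1160 of Stag2. Within these coding sequences, no longer stretch was the same in both paralogs:
Stag1 and Stag2 shared run: cttgacaaagaatatgatgttgc
The PDS5 paralogs were alike in this, with 70.2% identity over 3966 bases and a longest run of 23 at coding bases 2863 to 2885 of Pds5a and 2836 to 2858 of Pds5b:
Pds5a and Pds5b shared run: tgtgccaaagaccctgtgaaaga
Smc1a and its meiotic paralog Smc1b had 62.2% identity over 3656 bases, with a longest run again of 23, at coding bases 874 to 896 of both:
Smc1a and Smc1b shared run: aatcagaagaggcctcagtacat
No window of 50 bases in the longest coding transcript of 8 of the 10 genes occurred in an annotated transcript of another gene. The exceptions were Smc3, with 1.56% of its windows shared, and Pds5a, with 2.62%. Each share covers all other genes. The gene sharing most was Gm11204 for Smc3 and, for Pds5a, Gm42727, an annotated gene inside the Pds5a span. Copies outside annotated transcripts were not searched.

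Stag1 had more counts than Stag2. Stag1, on chromosome 9 from 100597798 to 100959375, had 1586 counts (1509 to 1666), or 135 per kilobase of exon. Stag2, on chromosome X from 42149317 to 42277185, had 672 counts (622 to 725), or 81.2 per kilobase. The ratio of Stag2 to Stag1 was 0.603 per kilobase of exon (0.551 to 0.661), and 0.420 per kilobase of coding sequence. Stag1 spans 361578 bases, of which 3.26% are exonic, and Stag2 spans 127869 bases with 6.47% exonic. Per kilobase of gene span the order turned, with a ratio of 1.20 (1.09 to 1.31), so the pair was not called different. The row order of the table tracked counts divided by gene span, with a Spearman rho of 0.9999 over 15052 genes, which are not independent replicates, against 0.9206 for counts divided by exon length. Whether intronic reads were counted is not stated in the labels. The sum of both genes was 0.198 of the Rad21 level per kilobase (0.188 to 0.208). It stayed below Rad21 under every length definition, at 0.0617 to 0.313.

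Loading and release were represented by genes of unlike level, with the releaser Wapl above the loader Nipbl. Nipbl, on chromosome 15 from 8290617 to 8444463, had 1127 counts (1062 to 1195), or 120 per kilobase. Wapl, on chromosome 14 from 34673928 to 34747983, had 2329 counts (2235 to 2426), or 352 per kilobase. The ratio of Nipbl to Wapl was 0.340 (0.316 to 0.365), and it lay between 0.208 and 0.340 under the 5 length definitions, so the pair was called different. For these genes too, exons outside other genes were the same as all annotated exons. Mau2, the partner of Nipbl in the loader, had 1014 counts, or 111 per kilobase of exon. Nipbl to Mau2 was 1.08 (0.989 to 1.17) on that scale, but 0.341 per kilobase of the longest coding transcript, because only 2887 of 9131 annotated exonic bases of Mau2 belong to that transcript. The order of this pair was therefore not settled. The deacetylase gene Hdac3, of the same list, had 823 counts.

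The PDS5 genes, whose proteins bind RAD21 and act both in release and in keeping cohesion, were the lowest of the 10 per kilobase of exon. This did not hold per kilobase of coding sequence, where Nipbl was lowest at 134. On that scale Pds5a was at 360, above Stag2 and Pds5b, which were both at 177. Pds5a, on chromosome 5 from 65605721 to 65698273, had 1438 counts (1365 to 1514). Pds5b, on the same chromosome from 150673739 to 150810690, had 770 counts (717 to 826). Per kilobase of exon they were at 74.4 and 78.3, a ratio of 0.950 (0.870 to 1.04). The annotation gives Pds5a 19335 exonic bases, of which its longest coding transcript uses 8934, and per kilobase of that transcript the ratio was 1.53 (1.40 to 1.67). Per coding length it was 2.03. This pair too was not called different, and its summed level was 0.140 of that of Rad21 (0.133 to 0.148), or 0.135 to 0.228 over the 5 length definitions.

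Ctcf was lower than Rad21 and in the range of the SMC genes. Ctcf, on chromosome 8 from 105636568 to 105682922, had 1884 counts (1800 to 1971), or 388 per kilobase of exon. The ratio of Ctcf to Rad21 was 0.356 (0.337 to 0.375), below 1 under each length definition (0.260 to 0.427). When the exonic bases under other genes were left out of the length, it was 0.406. Its germline paralog Ctcfl had 1 count, which put Ctcf at 1247 times Ctcfl per kilobase with a counting interval of 224 to 49283; 40.6% of the Ctcfl exonic bases lay under another gene. Of 8 partners at boundaries and loops, 7 were listed and 6 were at CPM 1 or more, while over all annotated genes the share at CPM 1 or more was 55.1%. The zinc finger gene Maz was at 814 counts per kilobase. The LIM-domain binding gene Ldb1, whose protein joins distant enhancers and promoters, was at 422. Patz1, with 26.7% of its exonic bases under other genes, was at 145, and Yy1 was at 130. Vezf1 was at 75.6, and Znhit1, with 40.2% of its exonic bases under another gene, at 69.4. Zfp143 was not listed, and all of its exonic bases lay under other genes.

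**Figure D3:**
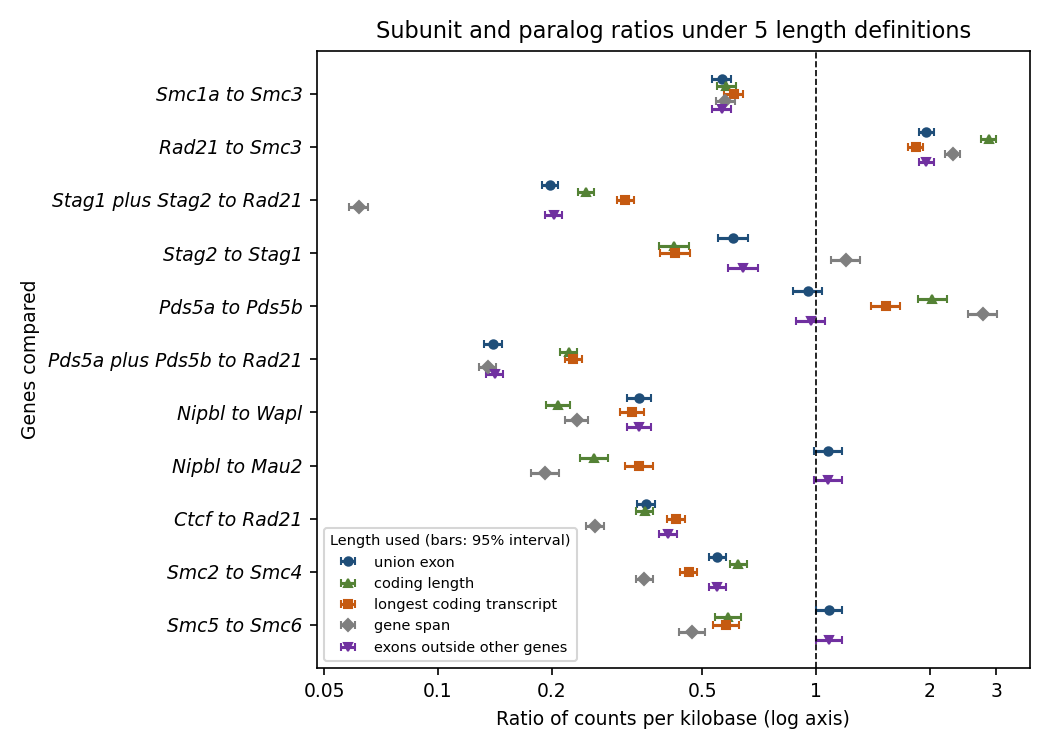
Ratio of counts per kilobase (log axis) for 11 comparisons, each under 5 definitions of gene length, with 95% intervals of counting error and a dashed line at 1. Smc1a to Smc3 keeps within 0.563 to 0.607, whereas Stag2 to Stag1, Pds5a to Pds5b, Nipbl to Mau2 and Smc5 to Smc6 have values on both sides of 1.

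Over the 8 comparisons among the 10 genes, 6 were called different. The share of other pairs of listed genes that would pass the same rule was not computed. Rad21 entered the comparisons with Smc3, both Stag genes, both Pds5 genes and Ctcf, so those calls are not independent of each other. All 8 comparisons are of poly(A) RNA, and protein was not measured. Those not called were the paralog pairs Stag2 to Stag1 and Pds5a to Pds5b. Among these 8, the comparisons other than those paralog pairs kept their direction under each length. This was no general rule, because Nipbl to Mau2, also of unlike subunits, ran from 0.192 to 1.08.

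Subunits of meiotic cohesin replace the usual ones in germ cells. By count and per kilobase of exon, the listed ones were below the subunits they replace. Of 4 genes, 3 were at CPM 1 or more, beside 55.1% of all annotated genes: Rec8, which takes the place of Rad21, had 475 counts, Stag3 had 302 and Smc1b had 267. Rad21 exceeded Rec8 by 6.74-fold per kilobase (6.13 to 7.42), and Smc1a exceeded Smc1b by 4.75-fold (4.18 to 5.43). Rec8 itself, at 162 per kilobase of exon, was above Stag1, Nipbl, Stag2, Pds5b and Pds5a on that scale. Stag1 exceeded Stag3 by 2.56-fold (2.26 to 2.90) and Stag2 exceeded it by 1.54-fold (1.34 to 1.77). Per kilobase of gene span this order turned, with Stag3 at 9.39, Stag2 at 5.26 and Stag1 at 4.39. Rad21l was not listed, although none of its exonic bases lay under another gene. Of 7 markers of meiotic germ cells, 4 were at CPM 1 or more, a share near the 55.1% of all annotated genes. They had a summed CPM of 46.02, led by Hormad1 at 22.9, while Sycp3 was not listed. Their part in the meiotic subunit values was not tested.

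Promoter windows of the cohesin genes were rich in CG dinucleotides, as shown by RefSeq sequences (GRCm38.p6, 250 bases before to 50 after the start). Windows were found for 7 of the 10, namely Smc1a, Smc3, Stag1, Wapl, Pds5a, Pds5b and Ctcf. They held 23 to 55 CG dinucleotides with a median of 41, against a median of 7 over all 32851 windows, of which 21.5% held at least 23. This was not particular to the cohesin genes. Among pathway genes, Vezf1 held 51, Yy1 42 and Smchd1 40, while Smc5 and Hdac8 held 6 each. The letters CCCTC, for which CTCF is named, were found on either strand in 6 of the 7 and in 66.0% of all windows. TCCCGC, the core of E2F sites, was found on either strand in 6 of the 7 and in 19.98% of all windows. CACGTG, the E-box palindrome, was found in 0 of the 7 and in 7.15% of all. Both hold a CG, and windows of like CG content were not compared. Among pathway genes, the windows of Bub1, Ncapg2 and Smc6 also held TCCCGC, while those of Plk1 and Pcna did not. Matches of the 3 motifs were counted separately, so that overlapping ones count for each. These motifs were chosen with the values known, and a match is no evidence of binding. Below, capitals mark CG dinucleotides in a gene of the usual ring (Smc1a, 23 of them, chrX:152016178-152016477, plus strand), a listed meiotic gene (Stag3, 30, chr5:138280259-138280558, plus strand) and the meiotic gene that was not listed (Rad21l, 2, chr2:151668484-151668783, minus strand):
Smc1a: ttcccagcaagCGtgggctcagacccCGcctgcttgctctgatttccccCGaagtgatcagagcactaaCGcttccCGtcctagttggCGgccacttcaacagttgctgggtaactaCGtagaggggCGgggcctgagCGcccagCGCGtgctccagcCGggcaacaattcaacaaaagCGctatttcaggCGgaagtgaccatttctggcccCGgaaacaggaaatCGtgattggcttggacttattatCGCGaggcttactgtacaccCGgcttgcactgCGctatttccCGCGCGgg
Stag3: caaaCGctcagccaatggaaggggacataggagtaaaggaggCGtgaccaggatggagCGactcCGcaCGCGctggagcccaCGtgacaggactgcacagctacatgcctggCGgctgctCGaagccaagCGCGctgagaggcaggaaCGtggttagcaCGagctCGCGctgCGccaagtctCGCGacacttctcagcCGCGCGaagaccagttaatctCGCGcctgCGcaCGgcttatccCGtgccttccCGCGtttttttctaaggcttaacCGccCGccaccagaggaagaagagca
Rad21l: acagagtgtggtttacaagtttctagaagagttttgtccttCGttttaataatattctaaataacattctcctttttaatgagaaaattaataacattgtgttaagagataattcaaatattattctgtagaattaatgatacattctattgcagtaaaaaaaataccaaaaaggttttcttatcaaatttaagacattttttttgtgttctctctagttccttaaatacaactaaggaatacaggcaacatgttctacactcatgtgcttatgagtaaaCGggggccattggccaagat
The Stag3 window held 1 CACGTG and 1 TCCCGC, and the Rad21l window held neither. The printed windows are examples, and CG content was not compared between listed and unlisted genes. Windows of the other unlisted pathway genes held 39 (Chtf8), 28 (Haspin), 25 (Nsmce3), 18 and 17 (Zfp143) and 15 (Nsmce4a) CG dinucleotides.

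Genes of the acetylation cycle, which locks cohesin around sister DNAs during replication, ranged widely in level. Of 10, 9 passed CPM 1, against 55.1% of all annotated genes, and CPM 64.2 was the median of these 9. Esco2, the acetyltransferase of SMC3 in S phase, had 1338 counts, or 201 per kilobase, and Esco1 had 317, or 62.2 per kilobase, a ratio of 3.24 (2.86 to 3.67). Per kilobase of the longest coding transcript that ratio was 6.59 (5.82 to 7.47). Cdca5, which encodes sororin, the antagonist of WAPL, was at 416 per kilobase. Hdac8, the SMC3 deacetylase gene on the X chromosome, had 65 counts, or 13.4 per kilobase. Pcna, the replication clamp, was at 1550 per kilobase, and Chtf18, of the clamp loader that acts in cohesion, at 138. Wdhd1, a replisome gene, was at 87.5 and the helicase gene Ddx11 at 48.1. Dscc1 of the same loader had 42 counts, with 64.9% of its exonic bases under another gene, and Chtf8, not listed, had 99.7%.

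Genes for removing, guarding and cutting cohesin in mitosis passed CPM 1 in 7 of 8 cases, against 55.1% of all annotated genes. The kinase genes Plk1, Aurkb and Bub1 were at 696, 403 and 346 counts per kilobase. Espl1, which encodes separase, the protease that cuts RAD21, had 1445 counts, or 165 per kilobase, and its inhibitor gene Pttg1 (securin) was at 396. Sgo1, whose product shields centromeric cohesin, was at 198 per kilobase, and Sgo2a was at 34.1 with 52.4% of its exonic bases under another gene. Haspin lies wholly inside Itgae and was not listed.

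**Figure D4:**
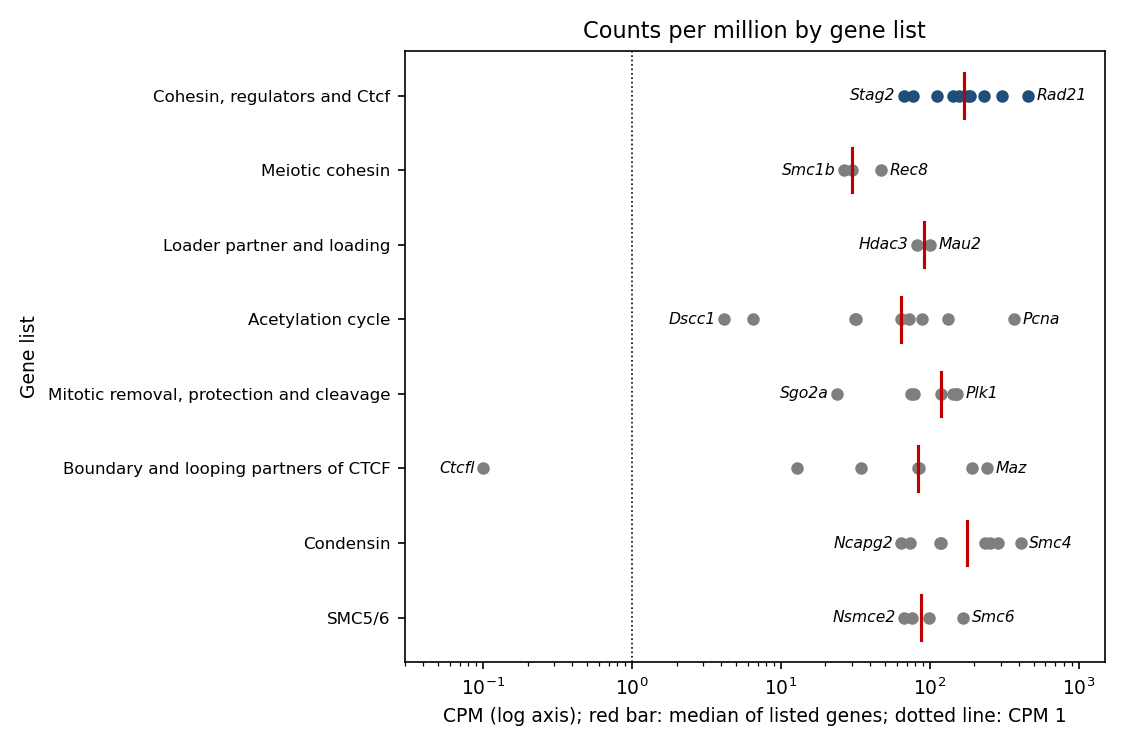
CPM (log axis) of the genes of 8 gene lists, 1 point per gene, with the median of each list as a red bar and CPM 1 as a dotted line. Meiotic cohesin genes lie between Smc1b and Rec8 at 26.7 and 47.4, below the 10 cohesin, regulator and Ctcf genes by CPM, although Rec8 at 162 counts per kilobase of exon is above 5 of them on that scale, and Ctcfl is the lowest point at 0.0998.

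The imbalance of the SMC pair was set beside the other SMC complexes. In condensin, which compacts mitotic chromosomes, Smc2 was at 0.549 of Smc4 per kilobase of exon (0.521 to 0.577), with 2361 and 4093 counts, and was lower under each length definition (0.352 to 0.623). In the SMC5/6 complex of DNA repair, Smc5 to Smc6 was 1.08 (0.999 to 1.17) per kilobase of exon but 0.579 per kilobase of the longest coding transcript. Condensin and cohesin thus each had 1 SMC partner below the other under every length definition. The 8 condensin genes were all at CPM 1 or more, beside 55.1% of all annotated genes. Their median CPM was 178, near the 169 of the cohesin genes.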

How the data were processed

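Poly(A) RNA of pSM44 cells was sequenced as 2 libraries of 1 group. The deposited values are whole-number raw counts by symbol in 1 column, and whether it pools both libraries is not stated. The submitters' processing notes name GRCm38.p6, Trimmomatic 0.38, HISAT2, SAMtools and Subread 1.6.4 with featureCounts. Which annotation, strandedness and feature type were used was not given in the sources used here.

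Counts were scaled by the file total of 10017978 to CPM. Lengths, positions and overlaps came from GENCODE M21 (GRCm38), in which 14896 symbols matched directly, 156 by RefSeq synonym and 75 not at all. Counts per kilobase used the union of annotated exons. Exact 95% Poisson intervals were given for counts, and exact conditional binomial (Clopper-Pearson) intervals for ratios; for sums of genes the interval was a normal approximation on the log scale. At 672 counts the Poisson half-width was 7.64% of the value and at 4614 counts 2.90%. With 1 column there was no test between samples. Coding sequences were aligned globally with Biopython 1.88 (match 2, mismatch -1, gap open -5, gap extension -1), identity being taken over aligned bases. Functions were tested on simulated counts. Protein features had been planned and are not analysed here. The software was scipy 1.17.1, numpy 2.4.6 and pandas 2.3.3 under Python 3.11.15.

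The members, lists and alternatives were chosen with earlier results of these data known. The rule for naming genes took the 10 members and the pathway lists, of which 1 gene is not reported here; genes with the most similar pattern could not be named from 1 column. Alternatives covered the gene length, the genes ranked among, the scaling total, the CPM minimum and the pseudocount.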

Additional observations from a re-analysis of the deposited data

How the results depend on the processing

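The alternatives mostly concern which length divides the count. With coding length, Rad21 to Smc3 was 2.87, both Stag genes to Rad21 0.246, Stag2 to Stag1 0.420, Pds5a to Pds5b 2.03, both Pds5 genes to Rad21 0.222, Nipbl to Wapl 0.208, Nipbl to Mau2 0.258, Smc2 to Smc4 0.623 and Smc5 to Smc6 0.585. With the longest coding transcript, Smc1a to Smc3 was 0.607, Rad21 to Smc3 1.83, both Stag genes to Rad21 0.313, Stag2 to Stag1 0.425, Pds5a to Pds5b 1.53, both Pds5 genes to Rad21 0.228, Nipbl to Mau2 0.341, Ctcf to Rad21 0.427, Smc2 to Smc4 0.461 and Smc5 to Smc6 0.579. With the gene span, Rad21 to Smc3 was 2.30, both Stag genes to Rad21 0.0617, Pds5a to Pds5b 2.76, Nipbl to Wapl 0.233, Nipbl to Mau2 0.192, Ctcf to Rad21 0.260, Smc2 to Smc4 0.352 and Smc5 to Smc6 0.469, and Stag2 to Stag1 reversed to 1.20; the cause was not tested. With exons outside other genes, Ctcf to Rad21 was 0.406, and the other 10 ratios stayed inside their intervals. The median percentile of the 10 genes was 94.2 among all annotated genes, 89.5 among genes at CPM 1 or more, and 81.2 per kilobase. The number of the 10 at CPM 100 or more was 8 under each total tried; the total without ribosomal protein genes was chosen after seeing the data, in place of a planned upper-quartile scaling that was not run because as worded it returns the same values. Of the 47 genes in the pathway lists, 40 passed CPM 1 (55.1% of all annotated genes did), 40 passed CPM 0.5 and 40 had 10 counts, and 41 were listed. The difference of medians was 3.20 with a pseudocount of 0.1 and 2.42 among genes at CPM 1 or more. No paired analysis was possible because the counts have 1 column and 1 group, and for the same reason no library could be left out. At the depth of 10017978 counts, single counts such as that of Ctcfl give no usable level.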

Other observations

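The remaining SMC-related genes were also present. Of the condensin subunits, Ncaph2 was at 684 counts per kilobase of exon, with 28.3% of its exonic bases under other genes, Ncapd2 at 405 and Ncaph at 279. Ncapg was at 165, Ncapd3 at 93.8 and Ncapg2 at 65.2. Smchd1, an SMC-hinge protein that acts in X inactivation, had 1032 counts, or 51.6 per kilobase of exon, with 66.4% of its exonic bases under other genes. In the SMC5/6 complex, Nsmce1 was at 575 counts per kilobase and Nsmce2 at 205, while Nsmce3 and Nsmce4a were not listed and had all exonic bases under other genes. Across the 47 genes of the pathway lists, 6 were not listed, and 4 of these had no exonic base outside other genes. Of the 755 annotated genes whose exonic bases all lay under genes of the opposite strand only, 4.11% were listed.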
